A study of Mus musculus with 8 samples.

Results

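The genes described here are 31 genes of cholesterol synthesis, uptake, storage and export in mouse liver, out of 17050 genes tested. They were chosen by name: 20 encode enzymes that build cholesterol from acetyl-CoA, 4 encode the proteins that sense sterol and switch the pathway, and 7 act in transport inside the cell, in ester formation or in export. All 31 were on the array, and all were well above background on all 8 arrays. Liver RNA came from C57BL/6J and KKAy mice, each at 4 and at 11 weeks of age, and every one of these 4 groups had 2 arrays. The labels describe C57BL/6J as normal and KKAy as diabetic. KKAy has the yellow agouti allele on another inbred background, so the strains differ at many loci besides agouti, and C57BL/6J is not a littermate control. Mice of every group ate chow and were fasted overnight, and the sources used here do not give their sex.

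Liver makes much of the body's cholesterol and also clears it, as bile acids and as free sterol in bile. When sterol in the endoplasmic reticulum is low, the escort protein Scap carries Srebp-2, the product of Srebf2, to the Golgi, where it is cut into an active transcription factor that raises synthesis and uptake genes together; when sterol is plentiful, the Insig proteins hold Scap back. When sterol accumulates, the oxysterol receptors of the LXR family raise export genes such as Abca1, Abcg5 and Abcg8.

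The 75th percentile of signal per array ran from 491.6 to 1241 fluorescence units, with 56.3% to 66.7% of spots clear of background. On the log2 scale, replicate arrays had a median SD of 0.0997 to 0.173 over the 31 members and of 0.126 to 0.222 over all genes. Each slide held the arrays of 1 age, so slide and age cannot be told apart, and each strain kept the same positions on both slides. Nothing in the labels says that replicates were separate animals; the p-values then reflect only how far these samples differ, which may be technical variation. The 9 hepatocyte markers measured, albumin among them, were well above background on all 8 arrays. In these bulk samples, fewer cells of a type and less RNA per cell cannot be told apart.

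The stretch just upstream of these genes is shown for 6 members, because genes of this pathway are controlled as a group and share short sequence elements there. RefSeq promoter windows, which run from 250 bases before to 50 bases after the gene start (build GRCm38.p6), were found for 25 of the 31 members. Each line gives the 250 bases before the start, 5′ to 3′ in the direction of transcription; capitals mark CCAAT or its reverse complement ATTGG, the box bound by NF-Y, a factor that works with Srebp-2, and in Hmgcs1 also the sterol regulatory element TCACNCCAC.
Hmgcs1, chr13:119690101-119690350, plus strand: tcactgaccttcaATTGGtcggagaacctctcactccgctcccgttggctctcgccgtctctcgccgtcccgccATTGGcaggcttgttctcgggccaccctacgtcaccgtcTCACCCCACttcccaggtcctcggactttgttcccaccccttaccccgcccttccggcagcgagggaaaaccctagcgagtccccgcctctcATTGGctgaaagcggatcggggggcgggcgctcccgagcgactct
Acat2, chr17:12960726-12960975, minus strand: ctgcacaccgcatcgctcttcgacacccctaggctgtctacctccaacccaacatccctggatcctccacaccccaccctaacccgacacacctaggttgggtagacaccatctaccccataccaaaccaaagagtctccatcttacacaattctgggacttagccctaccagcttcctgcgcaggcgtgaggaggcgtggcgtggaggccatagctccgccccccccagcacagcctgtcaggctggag
Mvd, chr8:122443423-122443672, minus strand: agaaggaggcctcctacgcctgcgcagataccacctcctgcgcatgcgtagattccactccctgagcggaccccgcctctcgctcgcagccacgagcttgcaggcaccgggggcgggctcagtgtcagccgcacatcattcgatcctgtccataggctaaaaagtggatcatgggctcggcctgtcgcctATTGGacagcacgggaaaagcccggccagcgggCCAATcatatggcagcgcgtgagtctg
Idi1, chr13:8885356-8885605, plus strand: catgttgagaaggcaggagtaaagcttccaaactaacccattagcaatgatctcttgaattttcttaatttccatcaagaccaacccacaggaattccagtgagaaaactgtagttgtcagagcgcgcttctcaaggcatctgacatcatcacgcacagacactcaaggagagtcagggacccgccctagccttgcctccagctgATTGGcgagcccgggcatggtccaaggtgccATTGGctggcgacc
Sc4mol, chr8:64733579-64733828, minus strand: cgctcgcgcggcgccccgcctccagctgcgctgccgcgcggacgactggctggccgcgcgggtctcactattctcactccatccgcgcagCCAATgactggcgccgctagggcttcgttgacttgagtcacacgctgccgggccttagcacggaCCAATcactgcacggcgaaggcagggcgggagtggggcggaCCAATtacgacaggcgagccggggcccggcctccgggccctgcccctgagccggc
Insig1, chr5:28071162-28071411, plus strand: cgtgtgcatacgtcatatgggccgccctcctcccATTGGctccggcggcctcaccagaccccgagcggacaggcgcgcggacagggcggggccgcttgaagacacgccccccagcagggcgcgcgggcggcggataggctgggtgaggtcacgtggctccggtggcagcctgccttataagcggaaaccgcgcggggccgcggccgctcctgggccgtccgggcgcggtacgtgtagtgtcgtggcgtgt

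These 6 include the gene with the sterol element and 5 of the genes that rose with age in KKAy liver. Both strands of every window were searched, and matches may overlap other motifs. CCAAT was found in 16 of the 17 synthesis genes with a window and in 16 of their 20 windows (80%), against 37.4% of all 32851 windows of this length in the table. In 11 of the 17 it occurred 2 or more times, with 5 matches in Mvk and 4 each in Hmgcs1 and Nsdhl. The exception was Acat2, whose 250 bases above hold no capitals. The GC box GGGCGG, bound by Sp1, was found in 15 of the 17 synthesis genes, against 38.2% of all genes in the table. TCACNCCAC matched Hmgcs1 alone, at position -137 from the start, against a match in 1.44% of all genes in the table. The E-box CACGTG was present in 6 of the 25 members, among them Insig1, against 8.09% of the 27025 genes in the table, and a direct repeat of AGGTCA spaced by 4 bases, the form that LXR binds, in 0 of 25, against 0.0148%. A match is a description of letters and not a binding site. Only these exact letters were searched, and the AGGTCA repeat is rare in the whole table. The lack of a match therefore does not show that an element is absent.

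**Figure D1:**
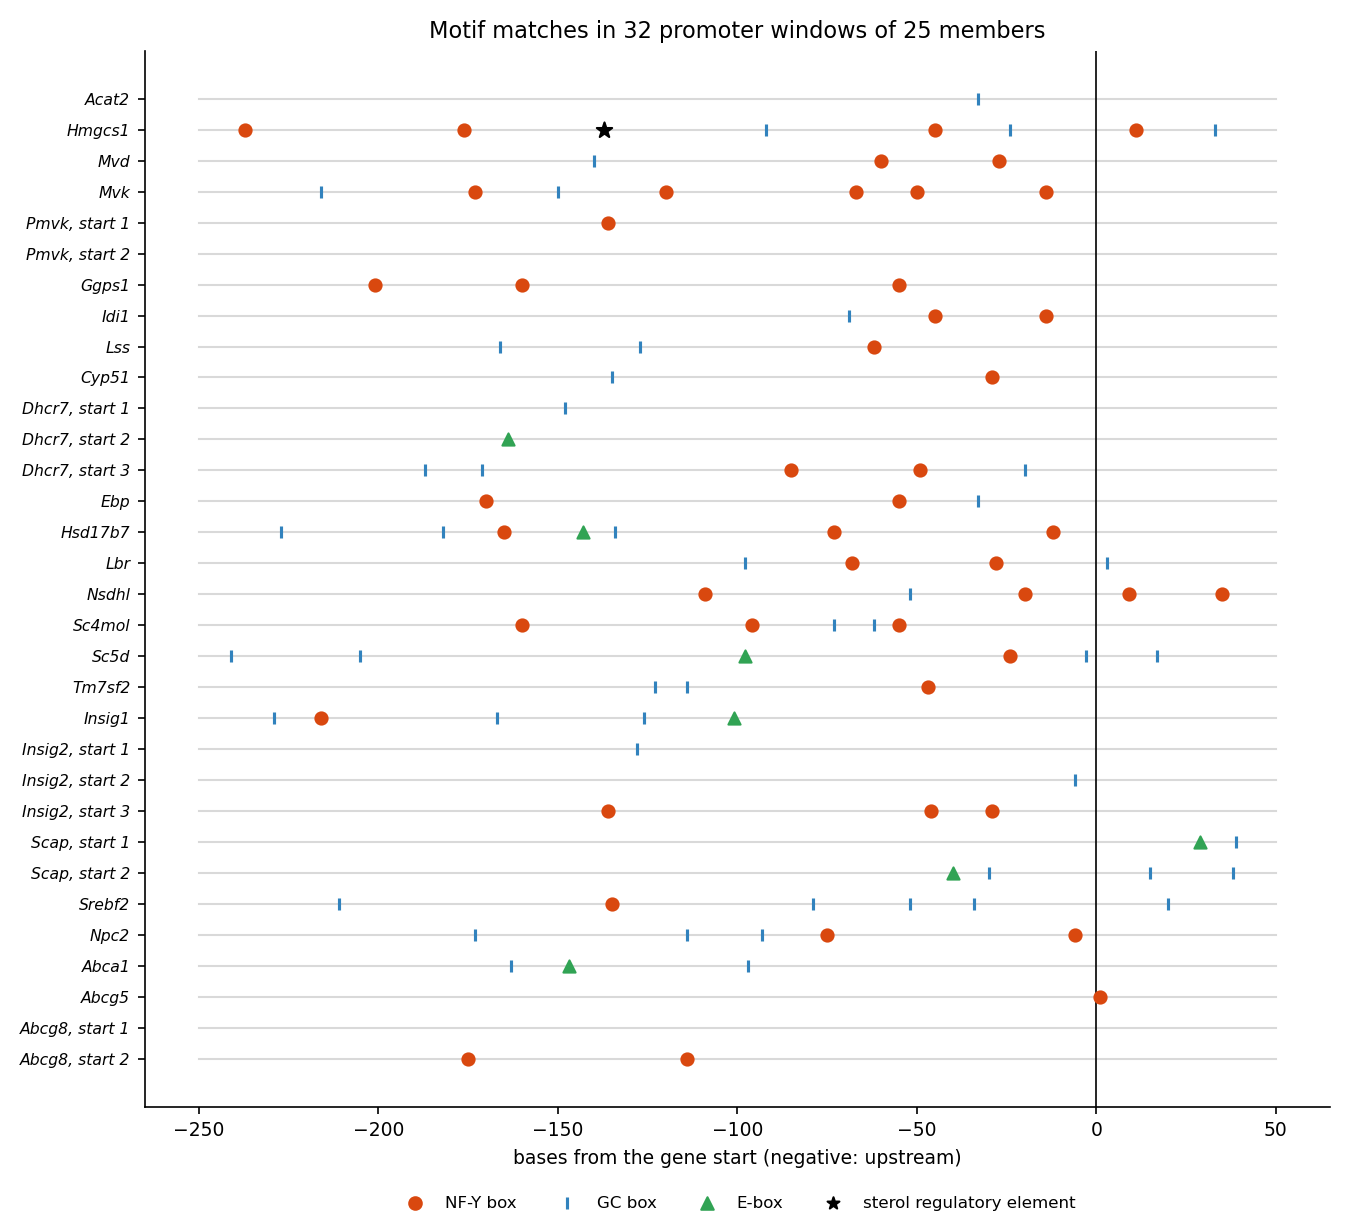
Positions of motif matches on either strand in 32 RefSeq promoter windows of 25 members, in bases from the gene start; each row is 1 window, and genes with several starts have a row for each. Circles (the NF-Y box CCAAT) lie in 16 of the 17 synthesis genes, and Acat2, the top row, has none.

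Differences below are log2 differences of group means from limma fitted over all 8 arrays, given with their SE; a gene passed where its p, adjusted by Benjamini-Hochberg over all genes, was under 0.05. Levels are log2 signal relative to the 75th percentile of the same array, with replicate 1 before replicate 2, and they are compared between arrays for 1 gene at a time. In KKAy against C57BL/6J at 11 weeks, 10 of the 31 members were higher and 2 lower, against 9.95% and 11.5% of all genes. Of the 20 synthesis genes 7 were higher and 0 lower at an adjusted p under 0.05 in limma, and 10 of the 20 had an unadjusted p under 0.05. The median difference was 0.34 over all members and 0.38 over the synthesis genes, against -0.000675 over all genes, and 25 of 31 members lay above 0. At 4 weeks the picture was mixed: 4 members were higher in KKAy and 3 lower, against 6.41% and 9% of all genes, with a median of 0.13 against 0.015.

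Between 4 and 11 weeks, 7 members rose and 3 fell in KKAy, against 7.89% and 10.7% of all genes. In C57BL/6J 0 rose and 2 fell, against 1.89% and 6.48%, and 9 members had an unadjusted p under 0.05 in limma. The difference between strains changed with age, as an interaction term, for 4 members, 3 upward and 1 downward, against 2.06% and 1.75% of all genes. The 2 strain comparisons and the 2 age comparisons share arrays and are not independent. Of the 20 synthesis genes, 13 had their highest group mean in KKAy at 11 weeks and 9 their lowest in KKAy at 4 weeks. The same order was not counted over all genes, so whether these counts are particular to the pathway was not tested.

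**Figure D2:**
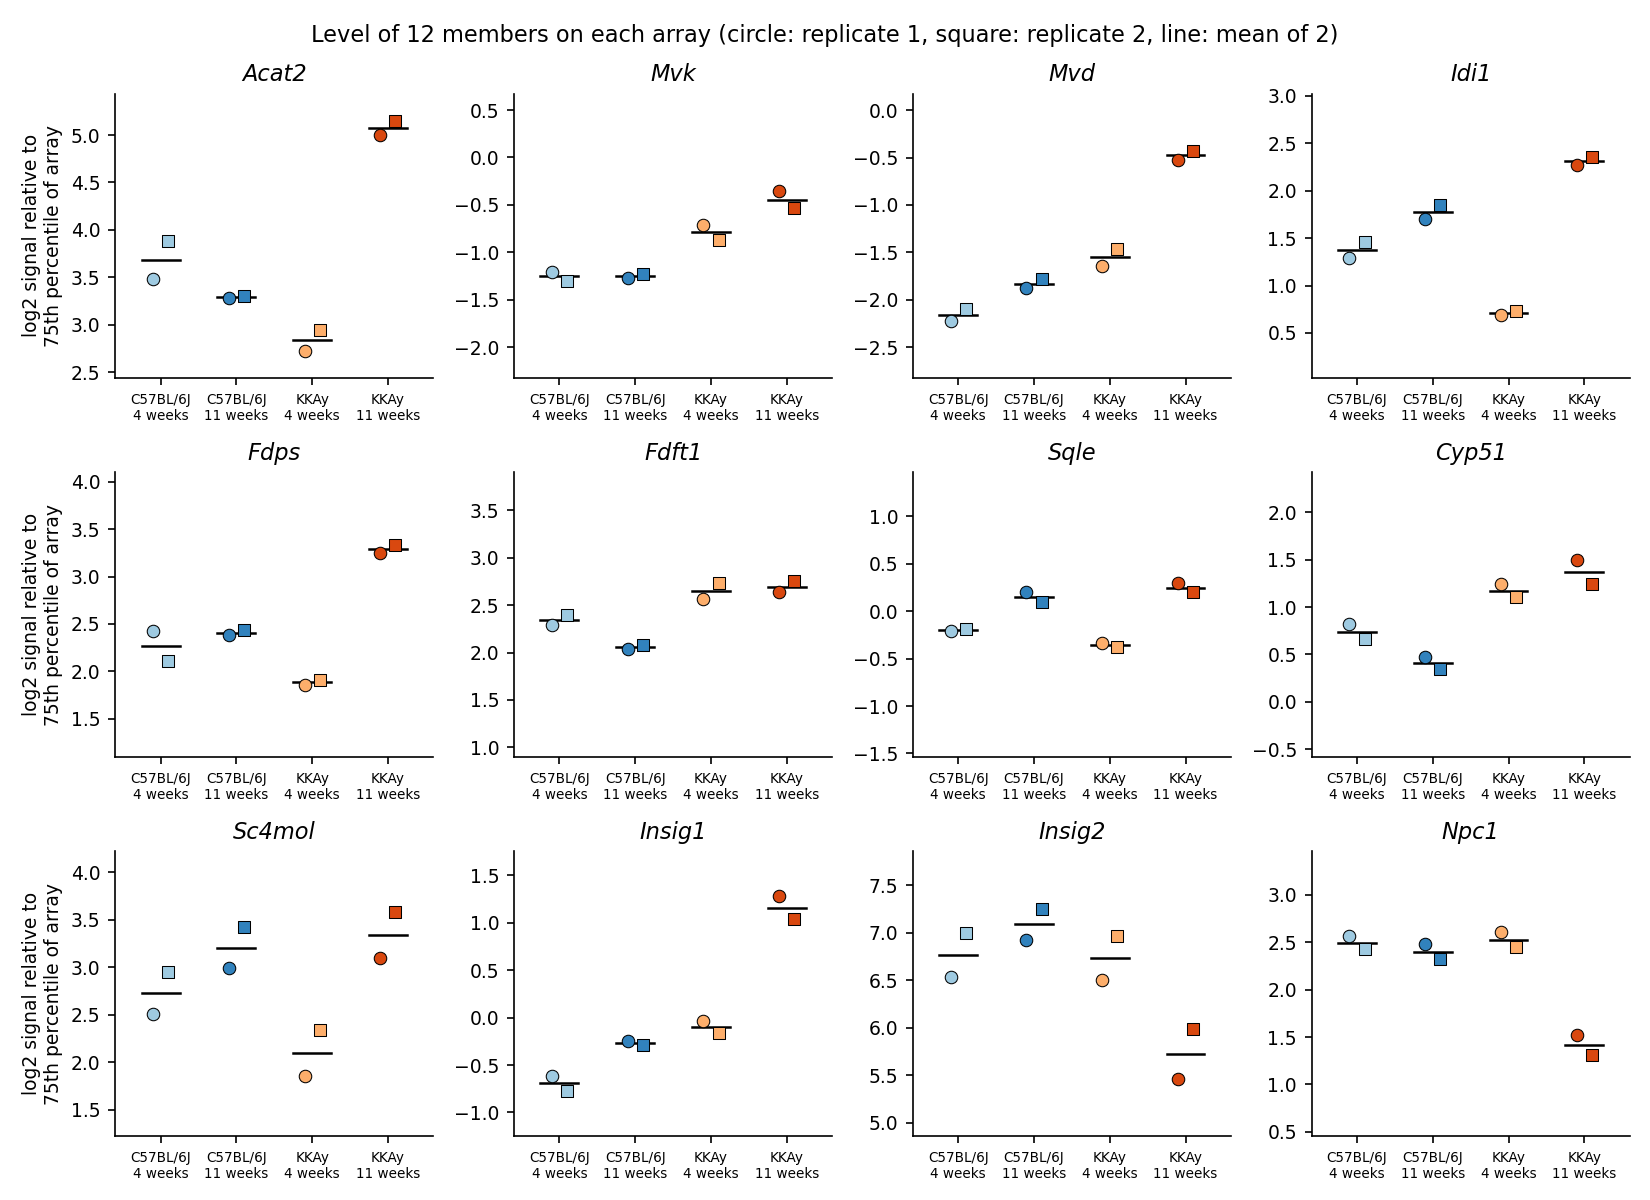
Level of 12 members on each of the 8 arrays, as log2 signal relative to the 75th percentile of the array; circles are replicate 1, squares replicate 2 and lines the mean of 2. In KKAy at 11 weeks Acat2, Mvd, Idi1, Fdps and Insig1 stood above all 6 other arrays, and Insig2 and Npc1 below them.

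The first reactions join acetyl-CoA units and carry them to mevalonate and on to isopentenyl pyrophosphate. Of the 5 genes measured here, 3 were higher in KKAy at 11 weeks (median 0.80), while at 4 weeks 2 were higher and 2 lower (median -0.44). Acat2, the cytosolic thiolase that makes acetoacetyl-CoA, had its probe on chromosome 17 at 12786563 to 12786622 (mm8, as all probe positions here). It stood at 3.49 and 3.88 in C57BL/6J at 4 weeks, 3.28 and 3.30 in C57BL/6J at 11 weeks, 2.73 and 2.95 in KKAy at 4 weeks, and 5.0 and 5.15 in KKAy at 11 weeks. The KKAy arrays were thus the lowest of all at 4 weeks and the highest of all at 11 weeks. Acat2 was lower in KKAy at 4 weeks by a log2 difference of -0.85 (SE 0.17, adjusted p = 0.0212) and higher at 11 weeks by 1.78 (SE 0.17, adjusted p = 0.00124). It rose by 2.24 with age in KKAy (SE 0.17, adjusted p = 0.000922), which is 4.71-fold, and stood at -0.39 in C57BL/6J (adjusted p = 0.257).

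Mvd, which decarboxylates mevalonate pyrophosphate (chromosome 8, 125319940 to 125319999), stood at -2.22 and -2.10 in C57BL/6J at 4 weeks, -1.88 and -1.78 in C57BL/6J at 11 weeks, -1.64 and -1.46 in KKAy at 4 weeks, and -0.52 and -0.43 in KKAy at 11 weeks. The 4 groups did not overlap, and both KKAy groups lay above both C57BL/6J groups. Mvd was higher in KKAy by 0.61 at 4 weeks (SE 0.12, adjusted p = 0.0199) and by 1.35 at 11 weeks (SE 0.12, adjusted p = 0.000979), and rose by 1.07 with age in KKAy (SE 0.12, adjusted p = 0.00308). Mvk, mevalonate kinase (chromosome 5, 114716983 to 114719930), stood at -1.20 and -1.30, then -1.27 and -1.23 in C57BL/6J at 4 and 11 weeks, and at -0.71 and -0.87, then -0.35 and -0.54 in KKAy. Every KKAy array lay above every C57BL/6J array. The difference was 0.80 at 11 weeks (SE 0.12, adjusted p = 0.00617), and 0.46 at 4 weeks (SE 0.12), where it passed by the narrowest margin (adjusted p = 0.04998).

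Pmvk, phosphomevalonate kinase (chromosome 3, 89554744 to 89554803), ran the other way. It stood at 2.96 and 3.21 in C57BL/6J at 4 weeks and 3.11 and 3.23 at 11 weeks, and at 2.24 and 2.47 in KKAy at 4 weeks and 2.68 and 2.94 at 11 weeks. All KKAy arrays lay below all C57BL/6J arrays, by -0.73 at 4 weeks (SE 0.16, adjusted p = 0.028) and by -0.36 at 11 weeks (adjusted p = 0.168). Hmgcs1, the cytosolic synthase whose sterol element is printed above, stood at 3.56 and 3.80 in C57BL/6J at 4 weeks, 3.72 and 3.83 at 11 weeks, and in KKAy at 3.11 and 3.38, then 3.13 and 3.38. Here too the strains did not overlap, with KKAy lower, but the differences of -0.44 and -0.52 did not pass (adjusted p = 0.141 and 0.0702). With quantile normalization both Hmgcs1 differences passed, at -0.49 (adjusted p = 0.0152) and -0.60 (adjusted p = 0.0063). At each age the difference did not pass in 14 of 16 alternatives, over which it ran from -0.57 to -0.082 at 4 weeks. The second, much dimmer probe of Hmgcs1 read -0.16 and -0.24 and did not pass (adjusted p = 0.877 and 0.744 over all probes). So at 11 weeks the 5 genes of this stretch split into 3 that were higher and 2 whose values were below C57BL/6J.

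Next come the enzymes that condense isoprenoid units into farnesyl pyrophosphate and squalene. Of 4 genes, 3 were higher in KKAy at 11 weeks (median 0.59) and 2 rose with age in KKAy (median 0.88), while 1 was lower at 4 weeks. Idi1, the isomerase that activates isopentenyl pyrophosphate, stood at 1.29 and 1.46 in C57BL/6J at 4 weeks, 1.70 and 1.85 in C57BL/6J at 11 weeks, 0.69 and 0.73 in KKAy at 4 weeks, and 2.27 and 2.36 in KKAy at 11 weeks. The 4 groups did not overlap, and as with Acat2 the KKAy arrays were the lowest at 4 weeks and the highest at 11. Idi1 was lower in KKAy by -0.66 at 4 weeks (SE 0.11, adjusted p = 0.014) and higher by 0.54 at 11 weeks (SE 0.11, adjusted p = 0.0226), and it rose by 1.60 with age in KKAy (SE 0.11, adjusted p = 0.000831). Both of its probes are placed on chromosome 2 by the files (the brightest at 53516550 to 53516609), whereas the RefSeq start is on chromosome 13, so which locus the probes read is uncertain.

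Fdps, farnesyl pyrophosphate synthase (chromosome 3, 89180817 to 89180957), stood at 2.43 and 2.11, then 2.38 and 2.43 in C57BL/6J, and at 1.86 and 1.91, then 3.25 and 3.34 in KKAy. The C57BL/6J groups overlapped each other, and KKAy lay below them at 4 weeks and above them at 11. Fdps was higher in KKAy by 0.88 at 11 weeks (SE 0.13, adjusted p = 0.00686) and rose by 1.41 with age in KKAy (SE 0.13, adjusted p = 0.00202), whereas the difference of -0.39 at 4 weeks did not pass (adjusted p = 0.122). Fdft1, squalene synthase (chromosome 14, 62101042 to 62105282), the first enzyme committed to sterols, stood at 2.29 and 2.39, then 2.04 and 2.08 in C57BL/6J, and at 2.57 and 2.73, then 2.64 and 2.75 in KKAy. Every KKAy array was above every C57BL/6J array, and the difference passed at 11 weeks (0.64, SE 0.11, adjusted p = 0.0117) and not at 4 (0.31, adjusted p = 0.139). Ggps1, which makes the longer geranylgeranyl pyrophosphate for protein prenylation, lay between -1.17 and -0.47 on all arrays, and no comparison of it passed.

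**Figure D3:**
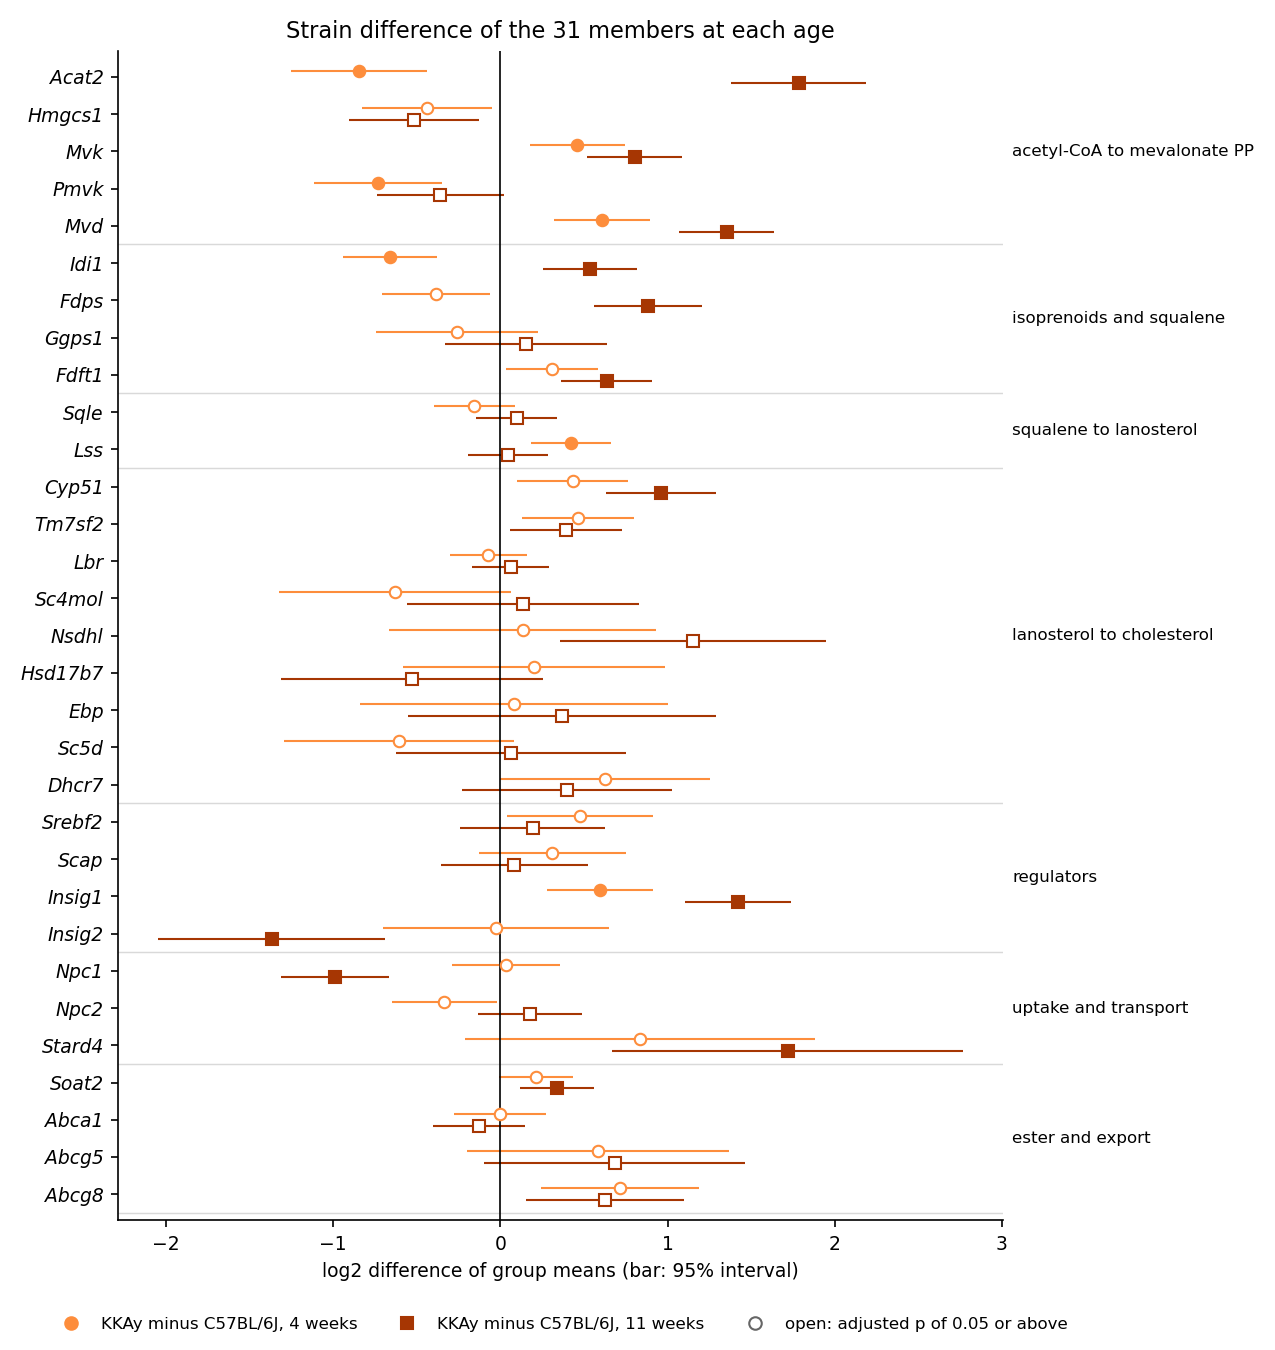
Log2 difference KKAy minus C57BL/6J for the 31 members at 4 weeks (circles) and 11 weeks (squares), by step of the pathway, with 95% intervals; filled symbols passed an adjusted p of 0.05. At 11 weeks 10 filled symbols lie above 0 and 2 below, and for Acat2 and Idi1 the 2 ages lie on opposite sides of 0.

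Squalene is then oxidised and folded into lanosterol by 2 enzymes. Sqle, squalene epoxidase (chromosome 15, 59160510 to 59160569), stood at -0.21 and -0.19 in C57BL/6J and -0.34 and -0.37 in KKAy at 4 weeks, and at 0.20 and 0.10 in C57BL/6J and 0.30 and 0.20 in KKAy at 11 weeks. All 11-week arrays lay above all 4-week arrays. The rise of 0.60 in KKAy passed (SE 0.10, adjusted p = 0.0117), that of 0.35 in C57BL/6J did not (adjusted p = 0.101), and neither strain difference passed. Lss, lanosterol synthase (chromosome 10, 75996963 to 75997022), stood highest in KKAy at 4 weeks, at -0.10 and -0.013, against -0.60 to -0.45 on the other 6 arrays. It was higher in KKAy at 4 weeks by 0.42 (SE 0.10, adjusted p = 0.0374) and fell by 0.45 with age in KKAy (SE 0.10, adjusted p = 0.0273).

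The remaining steps strip methyl groups from lanosterol and shift its double bonds. Of these 9 genes only 1 passed between strains on its brightest probe, Cyp51 at 11 weeks, although the median difference was 0.37 at that age. Cyp51, the cytochrome P450 that removes the first methyl group (chromosome 5, 4089242 to 4089301), stood at 0.82 and 0.66, then 0.47 and 0.34 in C57BL/6J, and at 1.24 and 1.11, then 1.49 and 1.24 in KKAy. On this probe, the brightest, every KKAy array lay above every C57BL/6J array, by 0.96 at 11 weeks (SE 0.13, adjusted p = 0.00541) and by 0.43 at 4 weeks (adjusted p = 0.0938). The probes of Cyp51 differed in direction at 4 weeks, as given below. Sc4mol, the C4-methyl oxidase now named Msmo1 (chromosome 8, 67610377 to 67610436), stood at 2.50 and 2.95, then 2.99 and 3.43 in C57BL/6J, and at 1.86 and 2.34, then 3.10 and 3.59 in KKAy. The KKAy arrays at 4 weeks were the lowest, and the strains overlapped at 11 weeks. Sc4mol rose by 1.24 with age in KKAy (SE 0.28, adjusted p = 0.0322) and stood at 0.48 in C57BL/6J (adjusted p = 0.432).

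Lbr, which is both a sterol reductase and an anchor of chromatin at the nuclear envelope (chromosome 1, 183652437 to 183652496), stood at 0.07 and 0.041, then -0.42 and -0.50 in C57BL/6J, and at -0.035 and 0.0026, then -0.39 and -0.42 in KKAy. It was lower on every 11-week array than on every 4-week array, by -0.52 in C57BL/6J (SE 0.09, adjusted p = 0.0266) and -0.38 in KKAy (SE 0.09, adjusted p = 0.0389). Nsdhl, which decarboxylates the C4 methyl group, stood at 1.14 and 0.43 in KKAy at 11 weeks, above the other 6 arrays (-0.54 to 0.34), with a difference from C57BL/6J of 1.15 that did not pass (adjusted p = 0.0553). Tm7sf2, the other C14 sterol reductase, read 5.65 to 5.95 in C57BL/6J and 6.11 to 6.39 in KKAy, with no overlap between strains and no difference that passed (0.47 at 4 weeks, adjusted p = 0.0798). Hsd17b7, Ebp, Sc5d and Dhcr7, the last of which catalyses the final reduction to cholesterol, had strain differences of -0.61 to 0.63 over both ages on their brightest probes, with adjusted p of 0.186 or more.

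The regulators did not move as 1 group. Insig1 (chromosome 5, 28408493 to 28408552), itself a known target of Srebp-2 as well as its brake, stood at -0.61 and -0.78, then -0.25 and -0.29 in C57BL/6J, and at -0.037 and -0.16, then 1.28 and 1.03 in KKAy. The 4 groups did not overlap, and KKAy at 11 weeks was the highest. It was higher in KKAy by 0.60 at 4 weeks (SE 0.13, adjusted p = 0.0302) and by 1.42 at 11 weeks (SE 0.13, adjusted p = 0.00119), and rose by 1.25 with age in KKAy (SE 0.13, adjusted p = 0.0026). Insig2 (chromosome 1, 123132054 to 123132113), the form that is known in liver to rise in fasting, stood at 6.53 and 6.99, then 6.93 and 7.25 in C57BL/6J, and at 6.51 and 6.97, then 5.46 and 5.99 in KKAy. The 3 other groups overlapped, and both KKAy arrays at 11 weeks lay below them. Insig2 was lower in KKAy at 11 weeks by -1.37 (SE 0.28, adjusted p = 0.019), and its fall of -1.01 with age in KKAy missed the threshold (adjusted p = 0.0546). On its second probe the difference with age in KKAy was -1.19 and passed (adjusted p = 0.0019 over all probes). Thus the 2 Insig transcripts differed between strains in opposite directions at 11 weeks.

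Srebf2 itself differed by 0.19 between strains at 11 weeks (adjusted p = 0.514) and by 0.48 at 4 weeks (adjusted p = 0.149), and ranged from 2.26 to 3.11 over the arrays. Scap differed by 0.08 and 0.31 (adjusted p = 0.802 and 0.354). The array reads transcript and not the cut, active form of the Srebp-2 protein.

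Of the 7 genes of transport, esters and export, 2 were higher and 1 lower in KKAy at 11 weeks and 0 passed at 4 weeks in limma, where 2 had an unadjusted p under 0.05. The median difference was 0.34 at 11 weeks, against 0.38 in the synthesis genes. Npc1, the membrane protein that lets cholesterol out of lysosomes, stood at 2.56 and 2.43, then 2.48 and 2.32 in C57BL/6J, and at 2.61 and 2.45, then 1.52 and 1.31 in KKAy. Both KKAy arrays at 11 weeks lay below the 6 others, which overlapped. Npc1 was lower in KKAy at 11 weeks by -0.99 (SE 0.13, adjusted p = 0.00463), which is a 1.98-fold lower signal, and fell by 1.11 with age in KKAy (SE 0.13, adjusted p = 0.00413). Npc2, its soluble partner in the lysosome, read 3.21 to 3.78 and passed in no comparison.

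Stard4, a carrier that moves cholesterol between membranes and a known Srebp-2 target, stood at 0.0092 and 0.54, then 0.076 and 0.66 in C57BL/6J, and at 0.79 and 1.43, then 1.57 and 2.60 in KKAy. The 2 arrays of a group lay far apart, and every KKAy array was above every C57BL/6J array. It was higher in KKAy at 11 weeks by 1.72 (SE 0.43, adjusted p = 0.0377) and differed by 0.83 at 4 weeks (adjusted p = 0.292). Soat2, the enzyme that esterifies cholesterol for storage and secretion in hepatocytes (chromosome 15, 101989129 to 101990046), stood at 0.94 and 0.97, then 0.51 and 0.47 in C57BL/6J, and at 1.17 and 1.16, then 0.82 and 0.84 in KKAy. The 4 groups did not overlap. Soat2 was higher in KKAy at 11 weeks by 0.34 (SE 0.09, adjusted p = 0.0468) and fell by 0.46 with age in C57BL/6J (SE 0.09, adjusted p = 0.0341), while -0.34 in KKAy missed the threshold (adjusted p = 0.0508). Both Soat2 calls were lost in several alternatives, given below.

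None of the 3 exporters passed on its brightest probe. Abca1, which loads cholesterol onto apolipoprotein A-I, read 2.80 to 3.07 on all 8 arrays and differed by -0.13 at 11 weeks (95% interval -0.40 to 0.14, adjusted p = 0.488). Abcg5 and Abcg8, the partner subunits of the pump that sends sterol into bile, differed by 0.68 and 0.63 at 11 weeks and by 0.58 and 0.72 at 4 weeks, and none of these passed (adjusted p = 0.195 and 0.0707, then 0.324 and 0.0602). Abcg8 stood at -0.30 to -0.07 in C57BL/6J and 0.23 to 0.68 in KKAy, without overlap. Its second probe was higher in KKAy by 0.91 at 4 weeks and 0.46 at 11 weeks and passed at both ages (adjusted p = 0.0037 and 0.0294 over all probes).

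**Figure D4:**
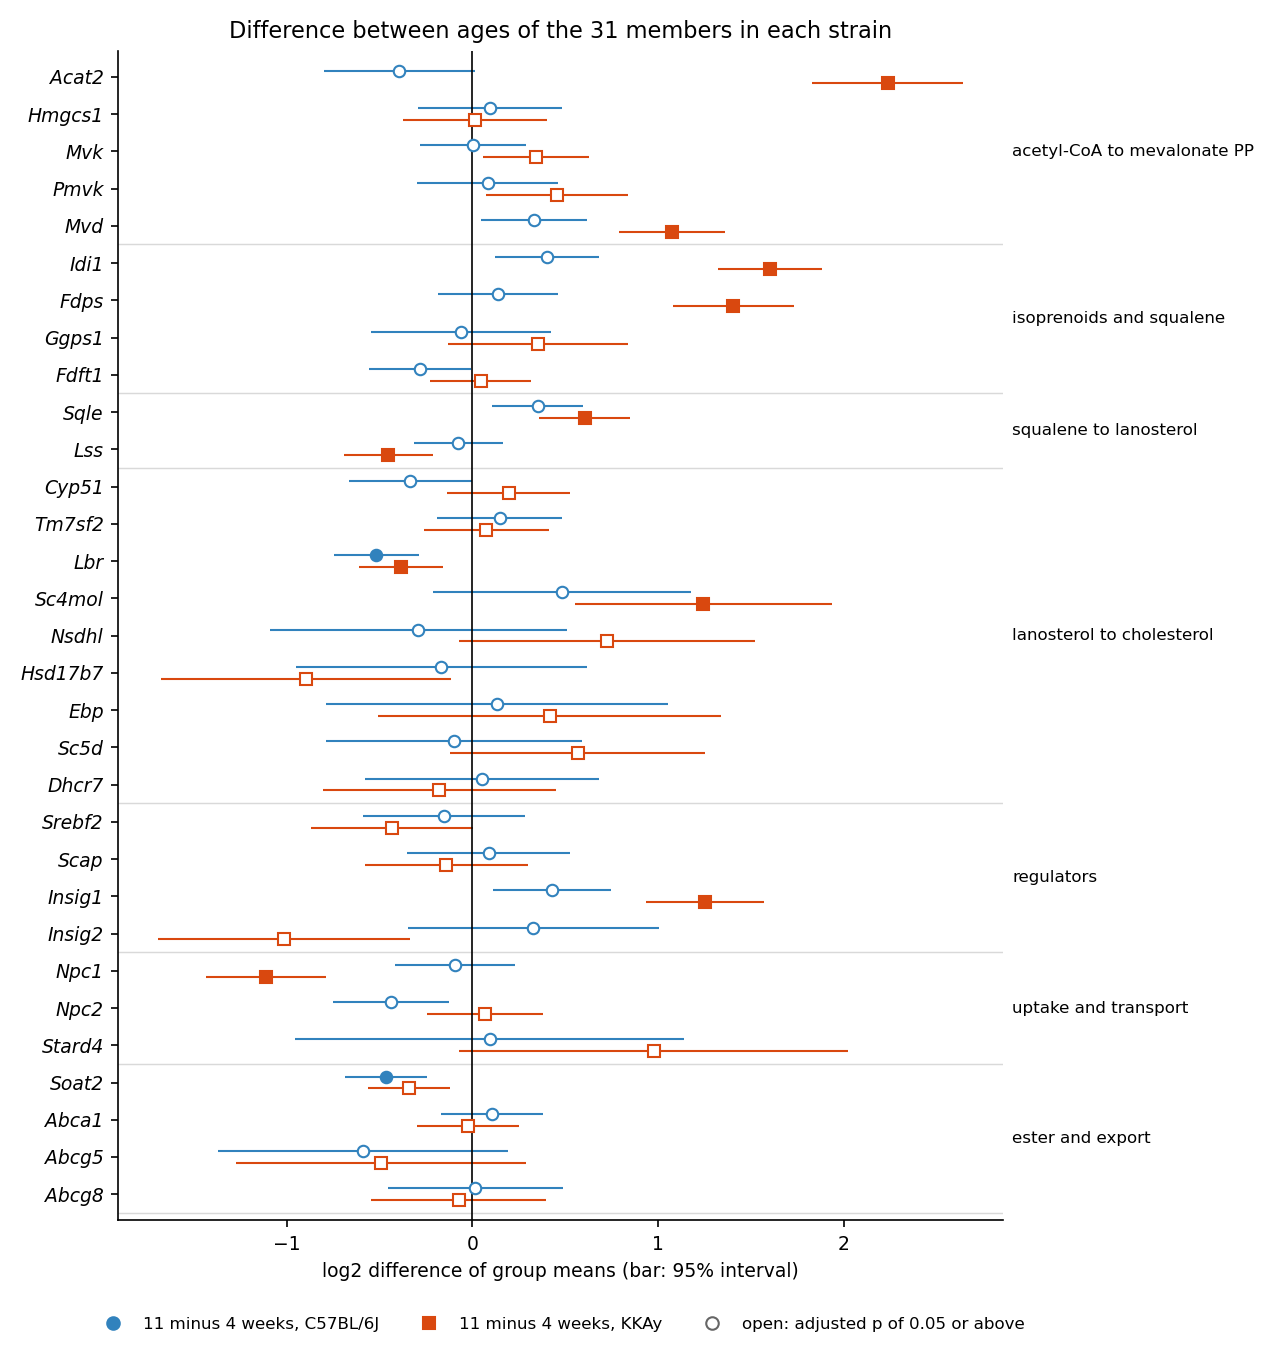
Log2 difference 11 minus 4 weeks for the 31 members in C57BL/6J (circles) and KKAy (squares), by step of the pathway, with 95% intervals; filled symbols passed an adjusted p of 0.05. In KKAy 7 members rose, led by Acat2 (2.24) and Idi1 (1.60), and 3 fell, while in C57BL/6J Lbr and Soat2 fell.

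The change of the strain difference from 4 to 11 weeks was tested directly by the interaction term. It was 2.63 for Acat2 (SE 0.23, adjusted p = 0.00643), 1.2 for Idi1 (SE 0.16, adjusted p = 0.0198), 1.27 for Fdps (SE 0.19, adjusted p = 0.0254) and -1.02 for Npc1 (SE 0.19, adjusted p = 0.0457). For Insig1 and Mvd the terms of 0.83 and 0.74 did not pass (adjusted p = 0.0752 and 0.0758), although both genes passed between strains at each age. Over the 20 synthesis genes the median term was 0.36, against 0.00866 over all genes. For the other 27 members the term did not pass on the brightest probe, which does not show that their strain differences were equal at the 2 ages. Among dimmer probes, the second of Insig2 (-1.31) and the third of Cyp51 (1.19) passed for this term in limma (adjusted p = 0.0147 and 0.0186 over all probes).

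Several members were read by more than 1 probe, 17 in all. The others, among them Acat2, Mvd and Npc1, kept 1 probe, so the alternative that took second probes read the same probe for them. At 11 weeks the members that passed between strains had 9 other probes, of which 9 had the same direction and 7 passed themselves. At 4 weeks they had 6, of which 5 had the same direction and 1 passed, and for age in KKAy 5, of which 4 had the same direction and 3 passed. Insig2's second probe read -1.58 and the other probes of Stard4 1.13 and 1.51, all past the threshold. Probes disagreed for some genes: the second probe of Insig1 read -0.0056 at 4 weeks and 0.50 at 11 weeks (adjusted p = 0.085), against 0.60 and 1.42 on the brightest. The second, much dimmer probe of Fdps read 0.30 at 11 weeks (adjusted p = 0.115) against 0.88, and -0.69 at 4 weeks (adjusted p = 0.0116) against -0.39, while its rise of 1.04 with age in KKAy passed. For Sc5d, which sets a double bond late in the pathway, the second probe read 1.43 and 1.73 at the 2 ages and passed at both, whereas the brightest read -0.61 and 0.061. The third, dimmer probe of Cyp51 read -0.51 between strains at 4 weeks (adjusted p = 0.027), where the brightest read 0.43. At 11 weeks the third probe read 0.68 (adjusted p = 0.0078) against 0.96. It rose by 1.65 with age in KKAy (adjusted p = 0.0007), where the brightest read 0.19. The second probe of Cyp51 read 0.35 and 0.77 between strains at the 2 ages and passed at 11 weeks. The second probe of Ggps1 read -1.63 and -1.32 between strains. A probe of Lss, from a separate transcript record, read 0.68 at 11 weeks (adjusted p = 0.0096) against 0.043 on the brightest. For these 6 genes the direction, the size or the call differed between probes. The call also differed for others, among them Idi1, Stard4, Nsdhl and Hsd17b7. The second probe of Idi1 read -0.34 at 4 weeks (adjusted p = 0.172) and 0.53 at 11 weeks (adjusted p = 0.0396). With age in KKAy the other Stard4 probes rose by 1.21 and 1.23 and passed, and the brightest did not (0.98). The second probe passed for Nsdhl at 11 weeks (1.15) and for Hsd17b7 with age in KKAy (-0.69). Whether the probe sequences match both strains was not tested.

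**Figure D5:**
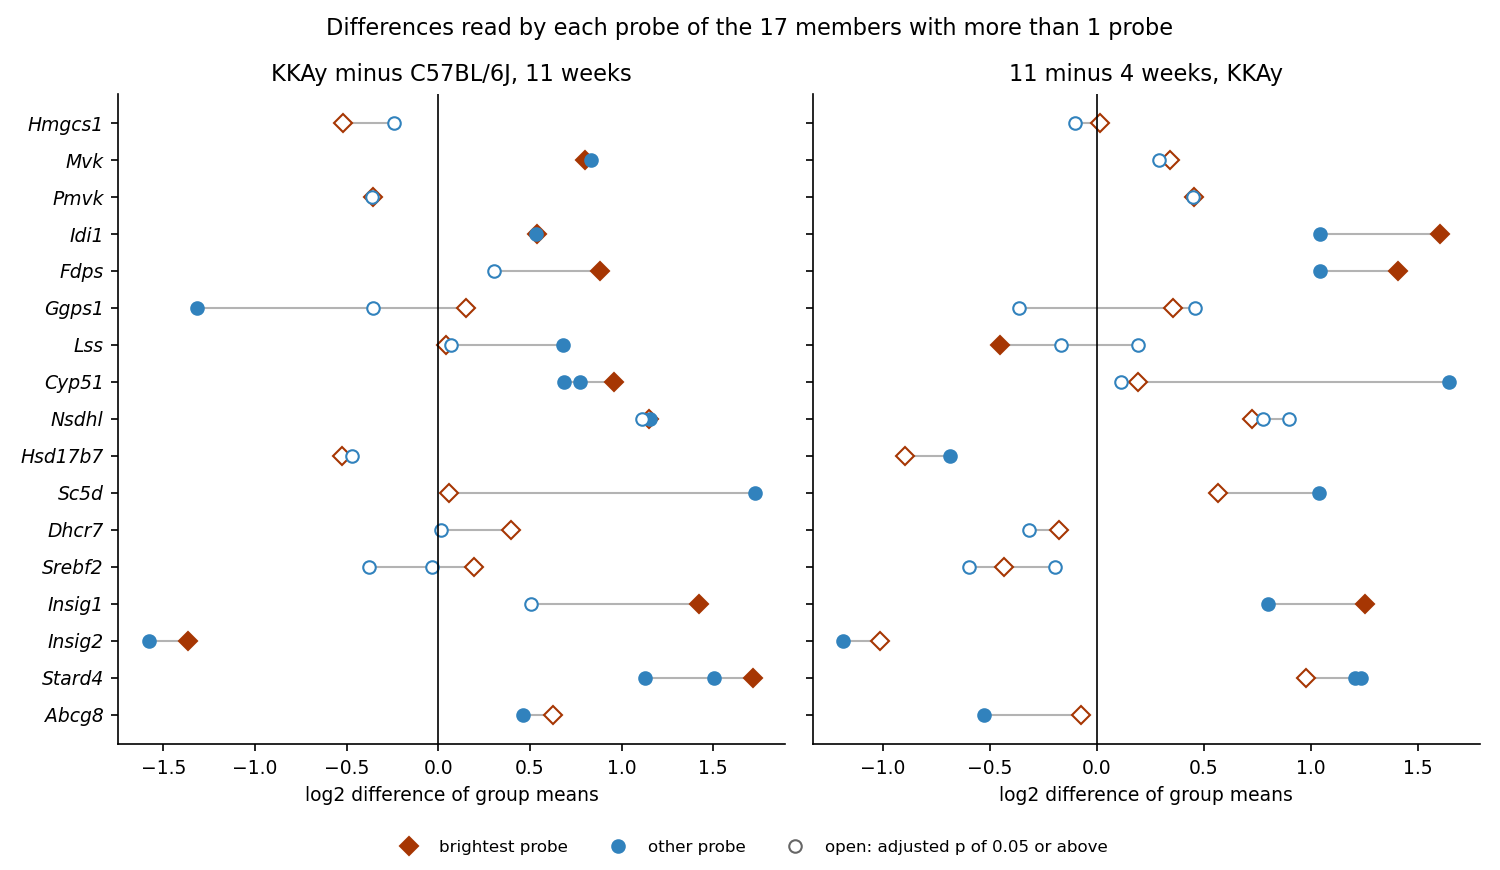
Log2 differences read by each probe of the 17 members with more than 1 probe above background, for KKAy minus C57BL/6J at 11 weeks and for 11 minus 4 weeks in KKAy; diamonds are the brightest probe, circles the others, and filled symbols passed an adjusted p of 0.05 over all probes. Probes of Mvk, Idi1, Nsdhl, Insig2 and Stard4 lie close together at 11 weeks, and those of Sc5d, Ggps1 and Insig1 lie apart.

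Another 50 pathway genes were measured of 51 listed. In KKAy against C57BL/6J 4 were higher and 2 lower at 4 weeks, and 7 higher and 4 lower at 11 weeks, which is 12% and 22% of them against 15.4% and 21.5% of all genes. Of 10 further genes listed with synthesis, a list not limited to enzymes of the sterol steps, 5 were higher at 11 weeks. Among them were Rdh11 by 0.96 (SE 0.24) and Cyb5r3, the reductase that feeds electrons to sterol oxidases, by 0.71 (SE 0.10). Por, the electron donor of Cyp51 and Sqle, was lower by -0.91 (SE 0.20, adjusted p = 0.0271), whereas Cyp51 was higher and Sqle did not pass. Srebf1, whose product chiefly drives fatty acid synthesis, was higher by 1.24 at 11 weeks (SE 0.11, adjusted p = 0.00094) and rose by 0.81 with age in KKAy (SE 0.11). Of 9 further export genes, Nr1h3, which encodes LXR alpha, was lower in KKAy at both ages, by -0.64 (SE 0.10) and -0.60 (SE 0.10). Among 12 further uptake genes, Vldlr, a lipoprotein receptor, was higher at 4 weeks by 1.098 (SE 0.20) and fell with age by 1.25 in C57BL/6J (SE 0.20) and by 2.35 in KKAy (SE 0.20). At 4 weeks the others that passed with the largest differences were Aacs (1.35), Sp1 (0.95) and Erlin1 (0.73), and at 11 weeks Lrpap1 (0.51) and Stard5 (-0.45).

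Other transcripts also differed in these contrasts. Of all genes, 6.41% were higher and 9% lower in KKAy at 4 weeks, and 9.95% and 11.5% at 11 weeks. With age, 1.89% of all genes rose and 6.48% fell in C57BL/6J, and 7.89% and 10.7% in KKAy. Of 10 Kupffer cell markers, 9 were lower in KKAy at 4 weeks and 7 at 11 weeks, and 9 and 6 fell with age in C57BL/6J and KKAy. Their summed level, as signal relative to the 75th percentile, was 166.8 to 195.4 in C57BL/6J at 4 weeks, 69.8 to 74.9 in C57BL/6J at 11 weeks, 66.1 to 73.0 in KKAy at 4 weeks and 41.0 to 42.2 in KKAy at 11 weeks, and none of the 10 was below background in any group. Of 8 stellate cell markers, 3 were lower in KKAy at 4 weeks, and 6 were lower and 1 higher at 11 weeks, and their summed level was 58.3 to 66.7 and 44.9 to 49.3 in C57BL/6J at 4 and 11 weeks and 48.5 to 56.5 and 24.4 to 30.7 in KKAy. Of 10 lymphocyte markers, 5 and 4 were lower in KKAy at the 2 ages, and 6 and 5 fell with age in C57BL/6J and KKAy. Of 12 cell cycle genes, 10 fell with age in C57BL/6J and 12 in KKAy, with medians of -2.97 and -3.16, and 1 and 2 were lower in KKAy at 4 and 11 weeks. Endothelial and cholangiocyte markers passed in fewer cases, 2 of 8 and 1 of 6 at 4 weeks and 3 of 8 and 2 of 6 at 11 weeks. In either direction, 15.4% and 21.5% of all genes passed at these ages. Of 4 erythroid markers measured, 2 and 1 were higher in KKAy at 4 and 11 weeks, and of 3 adipocyte markers measured 3 rose with age in C57BL/6J and 1 in KKAy. Of 9 hepatocyte markers, 1 was lower at 4 weeks, and 1 was higher and 3 lower at 11 weeks. Of 15 clock genes, whose daily rhythm many liver genes follow, 5 were higher and 2 lower at 4 weeks and 4 higher and 3 lower at 11 weeks, with Dbp higher by 1.95 (SE 0.19) and 3.07 (SE 0.19). The part of these shifts in the results on the 31 members was not tested.

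Of the 7 calls at 4 weeks, 2 were left without C57BL/6J replicate 1 of that age and 0 without its replicate 2, 1 without either C57BL/6J array at 11 weeks, 0 without either KKAy array at 4 weeks, and 6 without either KKAy array at 11 weeks; where limma called 0, 10 to 12 members had an unadjusted p under 0.05. Scaling to spike-in controls, which moved the median of all genes at 4 weeks to 0.37 and the share of higher calls among all genes from 41.6% to 76.3%, gave 10 higher and 0 lower members, and the lower calls of Acat2, Pmvk and Idi1 were lost (-0.49, -0.38 and -0.31). The 12 calls at 11 weeks came to 5 without either C57BL/6J array of that age, and Acat2, Mvd and Npc1 passed under every other setting, each array left out included. The 10 calls with age in KKAy came to 6 without KKAy replicate 1 or 2 at 4 weeks or replicate 1 at 11 weeks, and Acat2, Mvd, Idi1, Fdps and Insig1 passed under every other setting. The 2 calls in C57BL/6J came to 0 or 1 without any 1 array, and the 4 interaction calls to 0 without either C57BL/6J array at 11 weeks and to 1 or 2 otherwise.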

How the data were processed

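Mouse liver RNA was hybridised to 8 Agilent arrays in 1 colour; strain and age, from the labels, give 4 groups of 2. Per the labels' protocols, RNA was purified on RNeasy columns and labelled with Cy3. Spot intensity comes, per the file headers, from Agilent Feature Extraction 9.5.1.1 with its background subtracted; the deposited table holds log2 values that equal log2 processed signal minus 1 constant per array, within 0.001 for 99.5% of probes. That table served as an alternative.

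Control spots and flagged spots (59 to 89 per array) were left out, spots of a probe were averaged, and log2 signal was expressed against the array's own 75th percentile. A probe was kept if some group had it well above background on both arrays (25320 probes), and the brightest probe stood for a gene, which left 17050 genes. Names came from accession (24375 probes), symbol (6301) or older symbol (2426) in the RefSeq table of GRCm38.p6, and 8072 kept the file's name. Probe positions are those of the files, on mm8, and are not set against the RefSeq positions; exon and UTR annotation on mm8 is not used here. Of the 31 members, 60 probes were on the array and 54 were kept. The fit (limma 3.58.1, R 4.3.3) took in all 8 arrays, with 4 residual and 1.93 prior degrees of freedom, and p-values were adjusted by Benjamini-Hochberg at 0.05. Single probes were fitted likewise over all probes kept. The number of arrays limits the precision. The procedure was tested on simulated data.

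Members past the threshold are given with their values on each array and the others by range. Of the other pathway lists, the 2 genes with the largest difference per list and comparison are named where space allowed. Members and lists were chosen with earlier results of these data known. Alternatives covered the background correction, scaling, filter, probe, arrays fitted, the replicate number as a block, and each array left out. Counts of members at an unadjusted p under 0.05 in the alternatives were not set against the share of all genes at that p. Python 3.11.15, pandas 2.3.3, numpy 2.4.6 and matplotlib 3.10.9 served for tables and figures.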

Additional observations from a re-analysis of the deposited data

Results flagged for a closer look

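The strain difference changed between 4 and 11 weeks, by the interaction term, for 4 members. For Acat2 the term was 2.63 (adjusted p = 0.00643): KKAy read lower than C57BL/6J at 4 weeks and higher at 11 weeks. For Idi1 it was 1.2 (adjusted p = 0.0198), with the same reversal, and for Fdps 1.27 (adjusted p = 0.0254), where the 4-week difference alone did not pass. For Npc1 it was -1.02 (adjusted p = 0.0457), from a difference of 0.033 at 4 weeks to -0.99 at 11 weeks. The lower calls of Acat2 and Idi1 at 4 weeks were lost with spike-in scaling, with no filter and with only the 4 arrays compared. That of Idi1 was also lost on its second probe (-0.34). The higher call of Idi1 at 11 weeks was lost with no filter and with only the 4 arrays compared. The Acat2 term passed under each setting except without C57BL/6J replicate 1 or 2 at 11 weeks. Of 15 alternatives, the term of Idi1 was lost in 10 (adjusted p from 0.00152 to 0.119 over all of them), that of Fdps in 9 (0.00723 to 0.148) and that of Npc1 in 12 (0.00162 to 0.209). All 3 were lost with spike-in scaling and with no filter. With each single array left out Idi1 and Npc1 were lost, and Fdps was lost except without C57BL/6J replicate 2 at 4 weeks. Idi1 was lost with second probes, and Npc1 with normexp background and quantile normalization. Npc1 has 1 kept probe, so with second probes its term stayed at -1.02. Its adjusted p in limma moved to 0.0529 in that setting, where the probes of other genes changed.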

How the results depend on the processing

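Counts of members that passed were 7 (4 weeks, strain), 12 (11 weeks, strain), 2 (age, C57BL/6J), 10 (age, KKAy) and 4 (interaction). They moved by less than 1.5 times with normexp background, quantile normalization, the deposited table, probes above background on all arrays and second probes. With no filter on dim probes, which tested 27595 or 27596 genes, the counts were 0, 7, 0, 6 and 1. From only the 4 arrays compared they were 0, 8, 0 and 5. The calls of Soat2 at 11 weeks, Lss at 4 weeks and Lbr with age in KKAy were lost with normexp background, no filter and only the 4 arrays compared. The fall of Soat2 with age in C57BL/6J was lost with spike-in scaling, no filter and only the 4 arrays compared. Spike-in scaling gave 0 for age in C57BL/6J (3 members at an unadjusted p under 0.05) and 1 for the interaction, and moved the share of higher calls among all genes from 46.4% to 61% at 11 weeks, from 42.4% to 19.3% with age in KKAy and from 54% to 35.7% for the interaction. At a count of 0 with no filter or the 4 arrays, 10 members at 4 weeks and 6 with age in C57BL/6J had an unadjusted p under 0.05. Leaving out 1 array gave 0 to 6, 5 to 11, 0 to 1, 6 to 8 and 0 to 2. Arrays with the same number deviated together between groups (r of 0.530 to 0.676 over all genes and 0.876 to 0.975 over the 31 members). The labels do not say what the numbers share. Replicate 1 sat at slide position 1 or 3 and replicate 2 at 2 or 4. In each group replicate 1 had the higher 75th percentile of signal and the higher spike-in level. Whether position or signal level underlies the shared deviation was not tested. With the number as a replicate block the counts were 23, 21, 13, 23 and 17, where 43.8%, 54.9%, 33.9%, 53.4% and 31% of all genes passed. Among the interaction terms that then passed were those of Mvd (adjusted p = 0.0033), Insig1 (adjusted p = 0.00497) and Insig2 (adjusted p = 0.00173). On second probes the direction reversed for Sc5d at 4 weeks (1.43), Insig1 at 4 weeks (-0.0056), Ggps1 at 11 weeks (-1.32) and Lss with age in KKAy (0.19); the cause was not tested. Other settings gave 2304 values on the same side of the threshold, 197 that lost and 99 that gained a call.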

Other observations

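Bile acid synthesis, the main route by which liver disposes of cholesterol, differed between strains as well. Of 8 genes, 5 were lower in KKAy at 11 weeks and 0 higher, against 11.5% and 9.95% of all genes. At 4 weeks 1 was lower, against 9% of all genes. Cyp7a1, the rate-limiting enzyme of the classic route, was lower by -0.52 at 4 weeks (SE 0.10) and by -2.44 at 11 weeks (SE 0.10, adjusted p = 0.000108), and its interaction term was -1.91 (adjusted p = 0.00367). Cyp39a1, an oxysterol hydroxylase, was lower by -5.15 at 11 weeks (SE 0.11), and Cyp8b1, which sets the balance of bile acid species, by -1.64 (SE 0.38). Cyp7b1, of the alternative route, rose with age in both strains, by 2.71 in C57BL/6J (SE 0.28) and 3.33 in KKAy (SE 0.28).

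The 10 fatty acid synthesis genes were divided at 11 weeks, with 3 higher and 2 lower, against 9.95% and 11.5% of all genes. Scd1, the stearoyl-CoA desaturase, was lower in KKAy by -0.92 at 4 weeks (SE 0.14) and higher by 1.48 at 11 weeks (SE 0.14), with an interaction term of 2.40 (adjusted p = 0.00452). Fasn, fatty acid synthase, was lower by -1.07 at 11 weeks (SE 0.21) and Elovl6, an elongase, by -1.004 (SE 0.19), while Pnpla3 was higher by 1.77 (SE 0.40) and Thrsp by 1.08 (SE 0.10).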
